A study of Mus musculus with 3 samples.

Results

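The genes described here are Fos, Fosb, Jun, Junb, Jund, Egr1, Ier2 and Atf3, a set of 8 immediate early and AP-1 genes taken by symbol from the 32285 genes listed. They were read in mouse embryonic stem cells of the E14 line (129/Ola background), kept in serum with leukemia inhibitory factor. Treatment began 24 h after seeding. One culture received 250 µg/mL cycloheximide, a blocker of translation elongation, for 3 h, another received the same dose for 6 h, and a control received the vehicle, 0.007% ethanol, for 6 h. All cells were then detached with trypsin, frozen, and thawed before droplet barcoding with 10x Genomics 3' chemistry of version 3. Each group is 1 library, so no test between groups was possible, and the 3 h library has no ethanol control of its own duration. Every interval below is a 95% interval for counting error only.

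Immediate early genes are transcribed within minutes of a stimulus by factors that the cell already holds, so their induction needs no new protein. Fos and Jun family proteins pair through leucine zippers into AP-1, a dimer that binds DNA, while Egr1 is a zinc finger factor induced through the ERK and SRF route. Many of their messages are short-lived and carry AU-rich stretches in the 3' UTR, and inhibitors of translation are classically used to prolong or raise such messages, a response called superinduction. The comparison asks which of the 8 genes were higher under cycloheximide and which were lost.

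All levels come from barcodes with at least 15000 unique molecular identifiers (UMIs) and 1 to 20% mitochondrial UMIs, which gave 2187 cells in the control, 1739 after 3 h and 2554 after 6 h. The median cell held 43160, 51726 and 46200 UMIs in that order, and the mitochondrial share was 4.57%, 3.51% and 2.94%. The lower limit of 1% removed 62, 1 and 8 barcodes, and no pair of libraries shared more than 3 kept barcodes. All 8 embryonic stem cell markers checked, among them Pou5f1, Sox2 and Nanog, were measured, with a summed level of 7067, 7980 and 7170 CPM (UMI counts scaled to a common library total). Dppa5a alone made up 4771, 5327 and 5475 CPM of these sums, and 6 of the 8 markers were lower at 6 h than in the control, with a median log2 ratio of -0.21 and the lowest for Zfp42 (-0.93), Utf1 (-0.73) and Sox2 (-0.54). Fibroblast markers, listed because feeder cells could be present, summed to 2.93, 2.36 and 1.99 CPM over 8 genes, with 3 of them at 0 in every library. Summed levels were 29.9, 30.2 and 22.6 CPM for 8 primitive endoderm markers, and 110, 81.8 and 60.6 CPM for 10 mesoderm, trophoblast and neural markers. Free RNA was read from barcodes of 10 to 100 UMIs. No doublets were removed, and no doublet caller was run.

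The sequences of Fos and Jun are shown first, because these are the members of the AP-1 pair whose levels moved in opposite directions. The 100 bases before the annotated start are given 5′ to 3′ on the gene's strand (RefSeq, GRCm38.p6), at chr12:85473790-85473889 for Fos and chr4:95052223-95052322 for Jun. Capitals mark the motifs searched.
Fos: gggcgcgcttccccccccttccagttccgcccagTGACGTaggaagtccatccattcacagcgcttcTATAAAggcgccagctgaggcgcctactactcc
Jun: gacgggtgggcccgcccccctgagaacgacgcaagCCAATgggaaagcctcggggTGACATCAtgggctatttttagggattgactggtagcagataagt
In Fos the CRE core TGACGT, the centre of the element bound by CREB and ATF factors, lay at -66 to -61 from the start, and the TATA box TATAAA at -33 to -28. In Jun the letters TGACATCA, known as a site for Jun and ATF dimers, lay at -45 to -38, and CCAAT at -65 to -61. Both strands were searched in all 32851 RefSeq promoter windows of 300 bases, and the letters were found in 7.51% of windows for TGACGT, 3.62% for TGACATCA, 13.6% for TATAAA and 37.4% for CCAAT. The usual AP-1 site, TGANTCA, was in 7.81% of windows and in none of the members' windows, and the CArG box, bound by SRF, was in 1.63% and likewise in none of theirs, which says only that these letters are not in those windows. Windows existed for 6 of the 8 members. Junb had CCAAT at -36 to -32 and TATAAA at 1 to 6 from the RefSeq start, Atf3 had the CRE core on the other strand (ACGTCA) at -8 to -3 and CCAAT on the other strand at 6 to 10, and Fosb and Jund had none of the motifs. The RefSeq starts used for Fosb, Junb, Jund and Atf3 differ from the ends of the GENCODE genes. A match describes letters only.

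The 3' UTRs were taken from the GENCODE M21 annotation. That of Fos, 815 bases long, held 4 ATTTA pentamers and 1 TTATTTATT nonamer, a longer form of the AU-rich element. Jun had 4 pentamers in 1233 bases, Atf3 3 in 1186, Junb 2 in 485, Egr1 2 in 1216, Fosb 1 in 2302 and Jund 1 in 533, while Ier2 had 0 in 755. Of genes with a 3' UTR of similar length, 10.7% had at least as many pentamers as Fos. The share was 24.2% for Jun, 35.1% for Atf3, 20.4% for Junb, 55.4% for Egr1, 94.1% for Fosb and 53.2% for Jund. The nonamer occurred in Fos alone among the 8, and in 573 (7.68%) of 7465 genes averaging at least 10 CPM and an annotated 3' UTR. The 30 bases richest in pentamers, with the pentamers in capitals, lie at bases 634 to 663 of the 3' UTR in Fos and 1028 to 1057 in Jun.
Fos AU-rich stretch: cgtttttattgtgttttcaATTTATTTAtt
Jun AU-rich stretch: gtgatcATTTAtaatcataggaaagATTTA
Genes with 1 nonamer had a median log2 ratio of 0.19 after 3 h and 0.23 after 6 h against control, next to 0.11 and 0.16 for the 6892 genes with none. The 131 genes with 2 or more nonamers had 0.16 and 0.14, so at 6 h they lay under those with none. These medians lie close together, and the ratios of Fos, given below, lie under all of them.

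The 8 genes showed 4 patterns. Fos and Fosb were lower at 3 h and lower again at 6 h. Jun, Ier2 and Atf3 were highest at 3 h and still above the control at 6 h by CPM. With TMM scaling, described below, the 6 h log2 ratio was 0.25 for Ier2 in place of 0.54, and 0.069 for Atf3 in place of 0.36. Subtraction of 10% free RNA left Atf3 at 0.14. The 3 h level of Atf3 leans on 1 barcode, and its shares of cells overlap, as given below. Junb and Egr1 were about 2-fold above the control at 3 h and below it at 6 h, and Jund hardly differed among libraries. Summed over the 8 genes, the level was 452 CPM in the control, 890 after 3 h and 472 after 6 h, so the total at 6 h was near that of the control while its makeup was not. Ier2 supplied 40.0%, 59.5% and 55.5% of these UMIs, and Fos 10.0%, 2.27% and 1.47%.

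**Figure D1:**
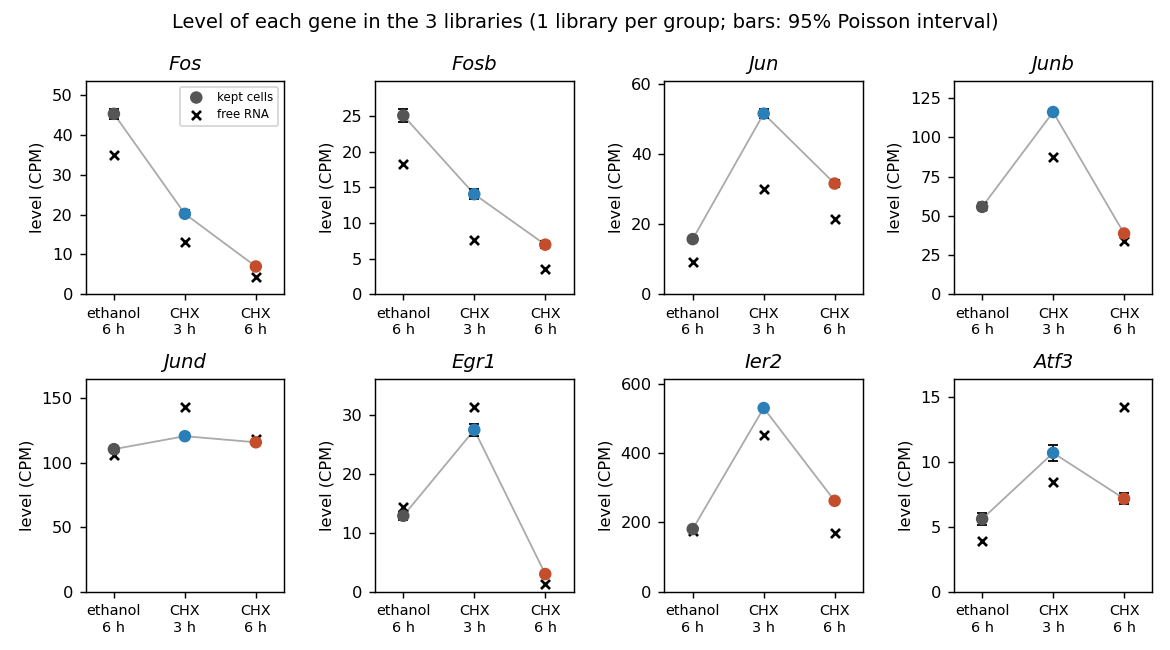
Level of each gene (CPM, linear axes from 0) in the ethanol control and after 3 h and 6 h of cycloheximide (CHX). Filled points are the summed counts of the kept cells with 95% Poisson intervals, crosses the free RNA, and the grey line only joins libraries; Fos and Fosb step down, Jun, Junb, Egr1, Ier2 and Atf3 peak at 3 h, and Jund stays between 110 and 120 CPM.

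Fos (chr12:85473890-85477273, GRCm38, plus strand, with no overlapping gene) encodes the partner that cannot pair with itself and needs a Jun protein. Its level was 45.4 CPM in the control (44.1 to 46.6), 20.2 after 3 h (19.3 to 21.1) and 6.93 after 6 h (6.51 to 7.38), so the 3 intervals did not overlap. The log2 ratio to control was -1.17 after 3 h (-1.24 to -1.09) and -2.71 after 6 h (-2.81 to -2.61), a 6.54-fold lower level. Among 7608 genes averaging at least 10 CPM, it was the 30th lowest ratio at 3 h and the 9th lowest at 6 h. Fos in free RNA followed the same order, at 35.01, 13.0 and 4.34 CPM.

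Fosb (chr7:19302696-19310051, minus strand), the close relative of Fos, was at 25.1 CPM in the control, 14.1 after 3 h and 6.95 after 6 h. The order was that of Fos with smaller steps, the log2 ratios being -0.84 (-0.93 to -0.75) and -1.85 (-1.96 to -1.75). At 6 h the levels of Fos and Fosb came from 973 and 975 UMIs, whereas the control held 5055 and 2800. Free RNA held 18.3, 7.57 and 3.57 CPM of Fosb.

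Jun (chr4:95049034-95052222, minus strand) encodes c-Jun, which pairs with itself, with Fos proteins or with ATF factors. Its level was 15.7 CPM in the control (15.0 to 16.5), 51.6 after 3 h (50.2 to 53.0) and 31.6 after 6 h (30.7 to 32.5). The ratio to control was 3.28-fold at 3 h (log2 1.72, 1.64 to 1.79), the 75th highest of 7608, and 2.01-fold at 6 h (log2 1.01, 0.93 to 1.09). Jun was thus highest at 3 h and remained above the control, but the 6 h ratio sits at the 2-fold line and was 0.72 in log2 with TMM scaling, described below. The antisense gene Junos overlaps Jun, and how the counting treated strand is not given in the sources used here.

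Junb (chr8:84974484-84978718, minus strand) encodes a Jun protein that activates weakly and can oppose c-Jun. Its level was 55.6 CPM in the control, 116 after 3 h and 38.6 after 6 h, an order with the 6 h library lowest. The log2 ratio to control was 1.06 after 3 h (1.02 to 1.11) and -0.53 after 6 h (-0.58 to -0.47). Prdx2 lies over part of Junb on the other strand.

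Jund (chr8:70698949-70700616, plus strand) encodes the Jun protein that most cells make without a stimulus. It was at 110 CPM in the control (108 to 112), 120 after 3 h (118 to 123) and 116 after 6 h (114 to 118), with the intervals of the 3 h and 6 h libraries just apart. The log2 ratios of 0.13 and 0.068 lay next to the medians over all genes, 0.11 and 0.17, and with TMM scaling they were -0.049 and -0.22. Its direction is therefore not settled by these data.

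Egr1, on chromosome 18, was at 12.9 CPM in the control (12.2 to 13.6), 27.5 after 3 h (26.5 to 28.5) and 3.01 after 6 h (2.73 to 3.31). It was 2.13-fold above the control at 3 h (log2 1.09, 1.00 to 1.18) and 4.29-fold below it at 6 h (log2 -2.10, -2.26 to -1.94). Free RNA held 14.5, 31.5 and 1.28 CPM of Egr1, the last from 5 UMIs. From 3 h to 6 h the level was 9.13-fold lower, a log2 ratio of -3.19 (-3.34 to -3.05), and Egr1 had the lowest ratio of all 7608 genes in that comparison. Its mean of 14.5 CPM over the libraries passed the floor of 10 CPM only through the 3 h library. That rank therefore leans on the library where Egr1 was highest.

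Ier2 (chr8:84661331-84662852, minus strand) encodes a small nuclear protein induced by growth factors, and it was the most abundant member by UMI. These are 3' tag counts with 1 tag per molecule, so levels were not divided by length. Ier2 was at 181 CPM in the control (178 to 183), 530 after 3 h (525 to 534) and 262 after 6 h (260 to 265). The ratio to control was 2.93-fold at 3 h (log2 1.55, 98th highest of 7608) and 1.45-fold at 6 h (log2 0.54).

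Atf3 (chr1:191170296-191218039, minus strand) encodes a stress-induced factor of the ATF family that can pair with Jun proteins. Its level was 5.61 CPM in the control (5.18 to 6.07), 10.7 after 3 h (10.1 to 11.3) and 7.18 after 6 h (6.74 to 7.63), and its mean of 7.83 CPM left it under the floor of 10 CPM. At 3 h a single barcode held 310 of the 1144 Atf3 UMIs, or 27.1%. Without the top barcode of each library the log2 ratio at 3 h was 0.50 in place of 0.93. At 6 h free RNA held more Atf3 (14.3 CPM) than the cells did.

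**Figure D2:**
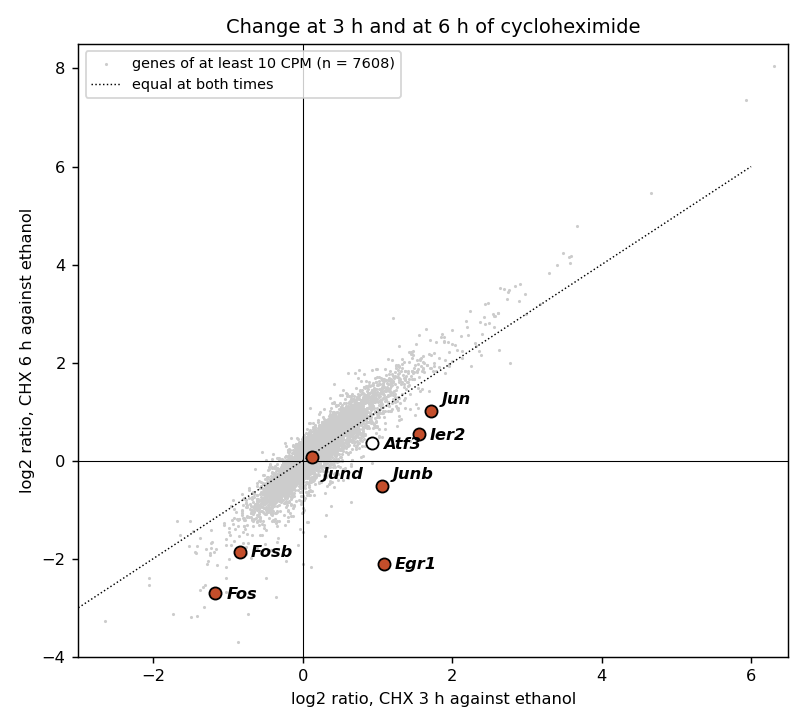
Log2 ratio to the ethanol control at 3 h (horizontal) and at 6 h (vertical) for the 7608 genes averaging at least 10 CPM (grey), with the 8 genes marked; Atf3, under that floor, is open. All 8 lie below the dotted line of equal ratios, Egr1 farthest from it, and both ratios share the control library.

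A 2-fold difference was used as the call, since no test was possible. Members and lists were chosen with earlier results of these data known. Their shares beside those of all genes are therefore descriptions, here and below, and do not test the set. Egr1 counts among the members over the floor only through its 3 h level. At 3 h, Jun, Junb, Egr1 and Ier2 were at least 2-fold above the control, 4 of the 7 members over the floor, while 4.32% of all 7608 genes were. Fos was at least 2-fold lower, 1 of 7, next to 0.513% of all genes. At 6 h Jun alone was at least 2-fold higher (1 of 7, where 8.65% of all genes were), a share that does not set the members apart. Fos, Fosb and Egr1 were at least 2-fold lower at 6 h, 3 of 7, next to 2.41% of all genes.

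Directly between the treated libraries, all 8 genes were lower at 6 h than at 3 h, with log2 ratios from -3.19 for Egr1 to -0.058 for Jund. Egr1, Junb (-1.59), Fos (-1.54), Fosb (-1.02) and Ier2 (-1.02, 2.02-fold) were past 2-fold, 5 of 7 members, next to 0.657% of all genes. Ier2 and Fosb sit at the 2-fold line: Ier2 was at -0.98 after subtraction of 10% free RNA and just under the line with equal weight per cell, and Fosb was at -0.99 without the cells with endoderm markers described below, which left 4 members in each case. None was at least 2-fold higher at 6 h than at 3 h, as were 0.145% of all genes. The median over the 8 members was -1.02 and that over all genes 0.044. Against the control the members' medians were 1.00 after 3 h and -0.23 after 6 h, beside 0.11 and 0.17 for all genes.

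Scaling moved some of these calls. TMM factors, which centre the bulk of genes, shifted every log2 ratio by -0.17 at 3 h and -0.29 at 6 h, which took the medians of all genes to -0.063 and -0.12. Junb and Egr1 in the 3 h library then stood at 0.89 and 0.92, under 2-fold, and Fosb passed 2-fold lower at -1.01. Of all genes past 2-fold at 6 h, the higher ones made up 78.2% by CPM and 47.4% by TMM, and at 3 h 89.4% and 77.5%. Between 6 h and 3 h they were 18.0% by CPM, 7.89% by TMM and 4.88% by mean UMIs per cell.

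Shares of cells were compared after each cell had been thinned to 15000 UMIs, which left out no kept cell. Fos had a UMI in 35.9% of control cells (33.9 to 38.0), 21.8% after 3 h (19.9 to 23.8) and 8.54% after 6 h (7.48 to 9.69). Egr1 was seen in 14.0%, 26.2% and 4.19% of cells, and Jun in 17.4%, 43.5% and 30.9%. Junb was seen in 50.6%, 66.4% and 33.5%, and Fosb in 27.3%, 15.8% and 8.42%. Each of these orders is that of the summed level of the gene. Ier2 was near its ceiling, at 91.3%, 99.7% and 93.4%, and Jund was at 74.4%, 77.3% and 74.6%. Atf3 was at 6.77% (5.75 to 7.90), 8.05% (6.81 to 9.43) and 8.61% (7.55 to 9.77), intervals that overlap.

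Without thinning, the shares were 59.7%, 49.97% and 24.2% for Fos, 39.8%, 72.7% and 61.1% for Jun, and 29.995%, 54.3% and 11.8% for Egr1. The culture is 1 line, with no cell type known to lack these genes, so free RNA served as the background. If 10% of a cell's UMIs were free RNA, 5.12%, 1.93% and 0.648% of cells would show Fos, and 2.14%, 4.61% and 0.191% would show Egr1. The measured shares of both genes were above these figures in each library.

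**Figure D3:**
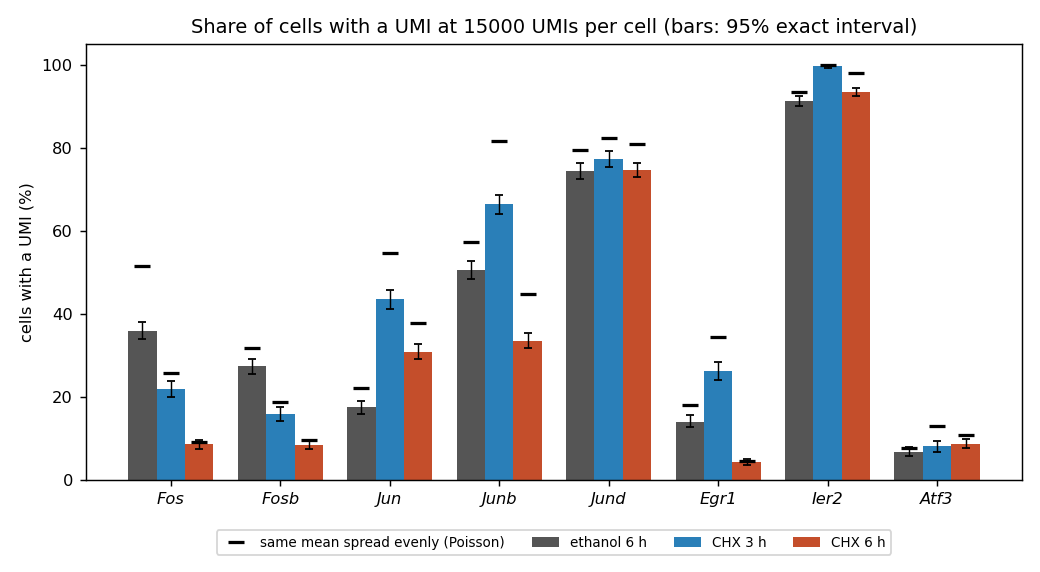
Percent of cells with at least 1 UMI of each gene after thinning to 15000 UMIs per cell, by library, with 95% Clopper-Pearson intervals; the axis starts at 0. Black dashes give the share if the same mean were spread evenly over cells, and Fos in the control (35.9% seen, 51.6% if even) and Junb at 3 h (66.4% seen, 81.7% if even) fall well below their dashes.

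The spread across cells also differed by library. For Fos the variance of thinned counts was 2.83 times the mean in the control, 1.59 after 3 h and 1.18 after 6 h, where 1 is the value of even spread. Control cells with a Fos UMI held 2.02 of them on average and up to 16, while the highest count at 6 h was 3. This ratio depends on the mean, which also differed by library. For Junb the ratio was 1.48, 2.47 and 2.49, and its level was lower at 6 h than in the control. Egr1 had 1.72, 2.34 and 1.17, Jun 2.04, 2.35 and 1.79, and Ier2 1.22, 1.78 and 1.89. Atf3 reached 11.5 after 3 h, where 1 thinned cell held 47 UMIs.

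Detection in the same cell was set against the product of both shares. Of 28 gene pairs, 24 were seen together in more cells than the product gives in the control, 26 after 3 h and 25 after 6 h. The median ratios were 1.06, 1.04 and 1.08, so many of these excesses were slight. In 9, 8 and 8 of the 28 pairs the counting interval of the ratio lay above 1. That interval treats the product as fixed, so these counts do not measure departure from independence. Pairs of other genes were not read, so whether such excesses are particular to the 8 genes was not tested. The widest excess in the control was that of Fos and Egr1, seen together in 178 cells where the product gives 110 (1.61 times, 1.39 to 1.86). Egr1 was found in 22.6% of control cells with Fos and in 9.21% of those without. The ratio for this pair was 1.29 after 3 h (1.08 to 1.52) and 1.31 after 6 h, where 12 cells held both (0.68 to 2.29).

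Fos and Fosb were seen together 1.39, 1.32 and 1.58 times as often as the product in the control, 3 h and 6 h libraries, and Fos and Jun 1.39, 1.21 and 1.34 times. Ier2, present in nearly every cell, had ratios close to 1 with every partner. Pearson r over cells was taken on log-transformed thinned counts. The highest was 0.240 for Fos with Fosb in the control (2187 cells). It was 0.226 for Jun with Jund at 3 h (1739 cells) and 0.216 for the same pair at 6 h (2554 cells). These cells share a library and the counts are sparse, so the values are descriptions of weak relations. Cells with 5 or more of the 8 genes made up 16.05% of the control, 23.1% after 3 h and 5.44% after 6 h, whereas independent shares give 11.7%, 19.6% and 2.97%. No other set of genes was counted in this way.

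**Figure D4:**
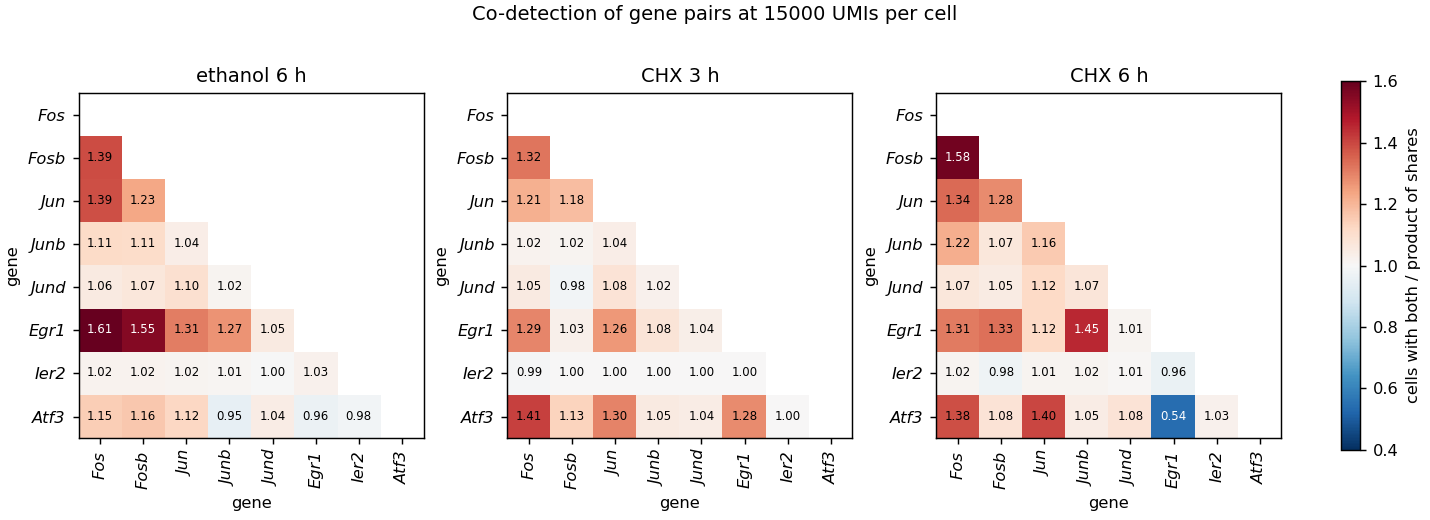
Cells with a UMI of both genes divided by the number that the product of the 2 shares gives, for 28 pairs in each library at 15000 UMIs per cell; red is above 1 and blue below. Pairs of Fos, Fosb, Jun and Egr1 are red in the control (1.23 to 1.61), and the blue cell of Egr1 with Atf3 after 6 h rests on 5 cells. The row of Ier2 is near 1, where its presence in nearly every cell leaves little room for an excess.

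Detection was also read by mitochondrial share. With control cells split by that share into 3 parts of equal size, Fos was seen in 28.9%, 34.98% and 43.9% of cells from lowest to highest, Fosb in 21.4%, 29.5% and 31.0%, Jun in 13.6%, 16.9% and 21.8%, and Egr1 in 9.74%, 14.7% and 17.7%. Ier2 ran the other way, at 92.3%, 91.5% and 89.99%. The same split gave 20%, 20.03% and 25.3% for Fos at 3 h and 8.10%, 8.93% and 8.58% at 6 h. Its part in the co-detection was not tested beyond the middle part, where the Fos and Egr1 ratio in the control was 1.47. In the middle part of a like split by UMI count that ratio was 1.46.

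Atf3 counts were higher in the few cells with several primitive endoderm transcripts. Cells with a UMI of at least 3 of 8 such markers (Gata6, Gata4, Sox17, Dab2, Pdgfra, Foxa2, Sox7 and Lama1) numbered 11 in the control, 8 after 3 h and 11 after 6 h, a cutoff chosen after the values had been seen. They held a mean of 1.18, 8.25 and 3.27 Atf3 UMIs at 15000 UMIs per cell, while the other cells held 0.073, 0.101 and 0.101. After 3 h 1 of the 8 cells held 47 of these UMIs, and the mean of the other 7 was 2.71. In the control only 3 of the 11 cells held Atf3, and the mean without the top cell was 0.70. The cells with the markers contributed 5.44%, 38.4% and 12.8% of the Atf3 UMIs of their libraries. Their median depth was 63362, 116558 and 37400 UMIs, and their summed stem cell markers averaged 84.4, 94.0 and 80.3 UMIs at 15000, next to 106, 119 and 107 in the other cells. Whether some are doublets was not tested. The barcode with 310 Atf3 UMIs was among them, with 6 of the 8 markers, 72 Jun, 72 Junb and 44 Egr1 UMIs. Jun was also higher in such cells, with means of 2.18, 3.00 and 1.64 against 0.241, 0.779 and 0.468, but its mean after 3 h was 1.00 without that barcode. Without the cells with the markers the Atf3 log2 ratio was 0.32 after 3 h, 0.24 after 6 h and -0.083 between 6 h and 3 h. The ratios of Jun to control were then 1.73 and 1.05.

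**Figure D5:**
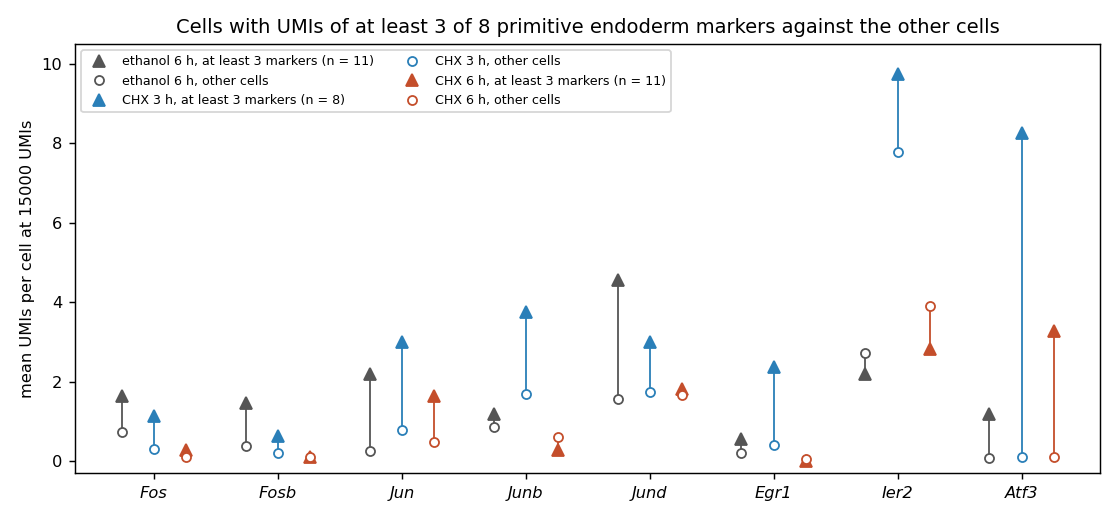
Mean UMIs per cell at 15000 UMIs of each gene in cells with at least 3 of 8 primitive endoderm markers (triangles; 11, 8 and 11 cells) and in all other cells (open circles), by library. Atf3 shows the widest gap, at 8.25 against 0.101 after 3 h (2.71 without the cell that held 47 UMIs), and no error is drawn because cells of 1 library are not replicates.

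Other genes of the same pathway were counted in lists. Of 44 further immediate early genes, 26 reached 10 CPM, and 7 of these were at least 2-fold higher at 3 h and 0 lower, with a median log2 ratio of 0.45, beside 4.32% and 0.513% of all genes. At 6 h 6 were higher and 4 lower, with a median of 0.096, beside 8.65% and 2.41% of all genes. TMM gave 6 and 6 and a median of -0.19, beside 4.68% and 5.19%. The highest at 6 h were Gadd45b, a stress gene of the Gadd45 family (12.7, 91.6 and 149.9 CPM; log2 3.56 after 6 h), Klf10, a TGF-beta response gene (2.95), and Nfkbia, the inhibitor of NF-kappaB (2.15). The lowest were Myc (-2.40), Dusp6, a phosphatase that acts on ERK (-2.18), and the nuclear receptor Nr4a1 (-1.90). Nr4a1 was at 20.6, 12.2 and 5.53 CPM, so its place over the floor leans on the control, where it was highest. Between 6 h and 3 h 5 of the 26 were at least 2-fold lower and 0 higher, with a median of -0.30, beside 0.657% and 0.145% of all genes.

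Of 14 genes for AP-1 partners, 10 were under 10 CPM and 4 reached it. Past 2-fold at 6 h was 1 of the 4, next to 2.41% of all genes lower, namely Mafg, a small Maf protein (49.4, 37.1 and 23.7 CPM; log2 -1.06). Of 19 MAP kinase genes and relatives 12 reached the floor, and 0 were past 2-fold in either direction at 3 h or 6 h. Their ratios at 6 h ran from -0.71 for Rps6ka1, a kinase downstream of ERK, to 0.50 for Map2k7, which activates JNK. Of 11 phosphatases of MAP kinases 4 reached the floor. Among these Dusp16, which acts on JNK, was higher at both times (1.29 in each, and 1.00 at 6 h with TMM) and Dusp6 lower at 6 h. Dusp6 was at 36.6, 39.5 and 8.11 CPM, so that its level, like that of Egr1, was lower at 6 h than at 3 h.

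Of 11 factors that bind AU-rich or related elements, 10 reached the floor. Zfp36l1, which speeds the decay of such messages, was the 1 past 2-fold at 6 h (81.6, 71.2 and 34.6 CPM; log2 -1.24), followed by Zfp36l2 (-0.96). The highest was Tia1 at 0.64, and Elavl1, which encodes the stabilising protein HuR, was at 0.22, or -0.065 with TMM. With TMM Zfp36l2 also passed 2-fold, at -1.24. None of 6 SRF and ternary complex factor genes and none of 5 Egr relatives and corepressors reached 10 CPM.

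The genes closest to each member in the pair of ratios to control, among those of at least 20 CPM, were found by Euclidean distance over 2 ratios. Nearest to Fos were Tcf15, Hspa8 and Mat2a (distances 0.21, 0.22 and 0.32), and nearest to Fosb Foxp4, Plec and Tubb3 (0.059 to 0.073). Egr1 had no close neighbour, its nearest genes being Epha2, Dusp6 and Socs3 at 0.98, 0.99 and 1.09. Junb was nearest to Tiparp, Gjc1 and Sgk1 (0.49 to 0.52), Jun to Bcdin3d, Hist1h4h and Ccdc160 (0.18 to 0.36), and Ier2 to Amotl2, Pim1 and Gm10130 (0.34 to 0.39). Jund lay among many genes, with Xpo5 and Mrpl43 within 0.0080, and Atf3 near Vegfc, Ppp1r10 and Bicral (0.053 to 0.090).

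Correlations across cells of 1 library, again on log-transformed thinned counts, were searched among genes averaging 20 CPM or more over the libraries. That leaves out Fosb and Egr1 as partners. The highest values of Fos in the control were with Jun (Pearson r 0.234, 2187 cells), Perp (0.168) and mt-Co2 (0.158). At 3 h Btg2 came first for Fos (0.197), Jun (0.245) and Egr1 (0.172) over 1739 cells, and for Jun it was followed by Jund (0.226), Phlda3 (0.211), Perp (0.199) and Ccng1 (0.179). After Btg2 came Jun (0.164), 1500009L16Rik (0.144), Phlda3 (0.142) and Sdc4 (0.141) for Fos. For Egr1 they were Resf1 (0.159), Jun (0.155), Mbnl2 (0.154) and Junb (0.150). Btg2, Phlda3, Perp and Ccng1 are known as p53 target genes, and Btg2 is also among the 44 further immediate early genes listed above. A link to p53 was not tested. At 6 h Jun was closest to Jund (0.216) and Gadd45g (0.184) over 2554 cells, while no gene searched exceeded 0.092 with Fos or 0.099 with Egr1. These weak values describe each library and share its depth and cells.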

How the data were processed

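The authors deposited raw UMI counts per gene and barcode, 6794880 barcodes per library, made with Cell Ranger 4.0.0 on mm10 per the submitters' processing notes; the annotation and strand setting are not given in the sources used here. Kept cells held 111447486, 106842407 and 140321458 UMIs (control, 3 h, 6 h), or 87.3%, 92.8% and 92.9% of the library. Counts were summed over kept barcodes and given as CPM. Log2 ratios used a prior of 0.5 counts. Intervals were exact Poisson (levels), conditional binomial (ratios) and Clopper-Pearson (shares); a count of 0 allows a share of up to 0.137%, 0.173% or 0.117%. Ranks and calls were limited to genes averaging 10 CPM or more. TMM factors came from edgeR 4.0.16 in R 4.3.3; other steps used Python 3.11.15, numpy 2.4.6 and scipy 1.17.1. The ratio and interval code was tested on simulated data. Of 32285 identifiers, 32158 matched GENCODE M21. Named genes were the 8 members, up to 3 highest and 3 lowest of each list at 6 h, and the nearest genes by distance or correlation. Members and lists were chosen with earlier results of these data known. Alternatives covered scaling, weighting, prior, floor, fold, free RNA, cell filters and thinning. Results for a few genes that this rule names are not reported here.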

Additional observations from a re-analysis of the deposited data

Results flagged for a closer look

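Egr1 and Junb stood out because their ratios to control had opposite signs at the 2 times. The log2 ratio of Egr1 at 6 h minus that at 3 h was -3.19, and that of Junb -1.59. Each time point is 1 library, both ratios use the same control, and the difference was not tested.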

How the results depend on the processing

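No paired analysis was possible because each group has 1 library. The direction of each log2 ratio to control held under the 12 alternatives run for it, apart from Jund, which was -0.049 at 3 h and -0.22 at 6 h with TMM. Counts of members past 2-fold were as follows where they moved. At 3 h the higher members numbered 2 with TMM and 2 with a floor of 50 CPM, in place of 4, and the lower ones 2 with TMM, 0 by mean UMIs per cell, 0 with the floor of 50 CPM and 2 at a fold of 1.5, in place of 1. At 6 h Jun left the higher call, giving 0, with TMM, with equal weight per cell, after subtraction of 10% free RNA, at 30000 UMIs per cell and at the floor of 50 CPM. That floor, which leaves 3 members, gave 0 lower at 6 h and 2 lower between 6 h and 3 h. The 5 lower between 6 h and 3 h became 4 with equal weight per cell, with free RNA subtracted and without cells with endoderm markers, and 6 at a fold of 1.5. The Fos and Egr1 ratio in the control was 1.34 without thinning. Leaving out cells with at least 3 endoderm markers, leaving out the top barcode and keeping the middle part by mitochondrial share were chosen after seeing the data. Thinning to 25000 UMIs instead raised all 24 shares; the order of libraries was kept for Fos, Fosb, Jun, Junb, Egr1 and Ier2 and changed for Jund and Atf3. With 1 library per group, differences between cultures and between conditions cannot be told apart.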
